A study of Homo sapiens with 6 samples.

Results

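The genes of the proteasome were compared between wild-type (WT) and S6K1-/- H7 human embryonic stem cells (hESCs) by bulk RNA sequencing. H7 is an established hESC line, grown here without feeder cells and kept undifferentiated. The S6K1-/- cells are 1 clone of H7 (clone #1), in which CRISPR/Cas9 with guides to RPS6KB1, the gene of S6K1, was used to delete part of the gene, and the WT cells are unedited H7. Each group had 3 libraries, and nothing in the labels says whether these came from separate cultures, so p-values measure the spread between these libraries, which may be technical. With 1 clone, an effect of S6K1 loss and a property of the clone cannot be told apart. S6K1 is a kinase downstream of mTORC1, a pathway that is known to influence both protein synthesis and protein breakdown. The comparison asked whether the transcripts of the breakdown machinery differed when this kinase was absent.

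The genes were chosen by symbol alone: every row named PSMA to PSMG followed by a number, and POMP, NFE2L1 and ADRM1. The rule found 51 of the 61155 rows of the count table, and 46 of them passed the filter on low counts and were among the 19521 genes tested. The other 5 members, PSMA8, PSMB3, PSMB8, PSMB9 and PSMB11, had from 0 to 3 counts in every library and were not tested.

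The proteasome degrades proteins that carry ubiquitin. Its 20S core is a barrel of alpha rings around beta rings, and PSMB5, PSMB6 and PSMB7 are the beta subunits with catalytic activity. The 19S cap recognises ubiquitin, removes it and unfolds the substrate with a ring of ATPases (PSMC genes), while other activators (PSME genes) open the core in other ways. Dedicated chaperones (PSMG genes and POMP for the core, PSMD5, PSMD9 and PSMD10 for the cap) put the particle together. NFE2L1 is the transcription factor known to raise proteasome genes when proteasome activity falls, through the antioxidant response element in their promoters. Pluripotent stem cells are known for high proteasome activity.

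Before the members, the libraries were checked. Totals lay between 21896698 and 24473013 counts. Mitochondrial genes took 8.63% to 8.78% of the counts in WT libraries, 9.51% and 9.74% in S6K1-/- replicates 1 and 2, and 8.54% in S6K1-/- replicate 3, and the 10 most abundant genes took 8.80% to 8.95%, 9.40% and 9.64%, and 8.75%. RPS6KB1, the targeted gene, was covered by 831, 791 and 777 counts in WT and by 464, 464 and 438 in S6K1-/- libraries, or 33.3 ± 0.994 against 19.8 ± 0.371 CPM (counts scaled to library size by the TMM method; SD, n = 3). It was lower in all S6K1-/- libraries, by -0.75 on the log2 scale (SE 0.0570, edgeR adjusted p = 2.52e-07). All 8 pluripotency markers were present at 1 CPM or more, with sums of 5890 to 6083 CPM in WT and 5748 to 5765 CPM in S6K1-/- libraries. Of the markers of fibroblasts and mesenchyme, 3 of 5 reached 1 CPM, with sums of 565 to 585 CPM in WT and 496 to 519 CPM in S6K1-/- libraries. THY1, which stem cells also express, made up most of this sum (488 against 480.0 CPM, adjusted p = 0.776), while COL1A1 fell from 80.2 to 23.2 CPM (adjusted p = 6.95e-12) and PDGFRB from 7.90 to 3.11 CPM (adjusted p = 5.41e-06). The neuroectoderm sum was 4.64 to 5.34 against 7.71 to 8.91 CPM, the mesendoderm sum 16.5 to 20.5 against 16.7 to 17.5 CPM, the amnion sum 1.07 to 1.34 against 0.877 to 1.10 CPM with HAND1 at 0, and the blood sum 4.27 to 5.90 against 3.22 to 5.03 CPM. Of the single markers, 5 more passed an adjusted p of 0.05. PAX6 rose from 4.47 to 7.58 CPM (adjusted p = 0.000269) and SOX1 from 0.263 to 0.648 CPM (0.0174), both of neuroectoderm, and MIXL1 of mesendoderm rose from 11.0 to 12.9 CPM (0.0449). FOXA2 of endoderm fell from 6.09 to 3.32 CPM (0.00108) and TDGF1 of pluripotent cells from 755 to 679.6 CPM (0.0308). The part of these lists in the results was not tested.

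Taken as a whole, the proteasome genes stayed at nearly the same level. They took from 0.490% to 0.515% of all counts in a library, and their summed level was 5039 ± 80.1 CPM in WT and 5020 ± 95.1 CPM in S6K1-/- hESCs (SD, n = 3). Among the 46 tested members the median log2 fold change was -0.017, with quartiles of -0.04 and 0.03, and the values ran from -0.40 to 0.18. Over all genes tested the median was -0.0024 with quartiles of -0.13 and 0.097. The members' median lay between -0.037 (library totals alone) and 0.0081 (without WT replicate 2, where its sign turned), and was -0.0102 with DESeq2's size factors, -0.0074 with DESeq2's test, -0.0057 without S6K1-/- replicate 1, -0.0027 without S6K1-/- replicate 2 and -0.0095 without S6K1-/- replicate 3. The level of 34 of the 46 tested members differed by at most 5% between the groups, and that of 41 by at most 10%. There were 26 members below 0 and 20 above 0.

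No member passed the study's threshold of an adjusted p of 0.001 in either direction with edgeR's quasi-likelihood test, where 2.54% of all genes tested were lower and 1.42% higher in S6K1-/- hESCs. With DESeq2 the count was 0 as well, but without the filter on low counts PSMG3 passed it as lower. At an adjusted p of 0.05, 2 members were lower (PSME1 and PSMG3) and 0 higher, against 8.31% and 5.47% of all genes tested. At an unadjusted p of 0.05, 4 members were lower (PSME1, PSMG3, PSMA5 and PSMB4) and 3 higher (PSMG4, PSMG1 and PSMD11), against 14.5% and 11.8% of all genes. For 3 members every S6K1-/- library was below every WT library, and for 3 every one was above, against 16.7% and 14.0% of all genes. With the filter kept, these shares of the members in the edgeR fit lay below those of all genes for each count. The counts of members without overlap moved when a library was left out. The lower ones became 6 without WT replicate 1, 5 without WT replicate 3 and 12 without S6K1-/- replicate 3, where 20.3%, 20.2% and 21.1% of all genes were apart in that direction. The higher ones became 7 without WT replicate 2, where 18.7% of all genes were apart, and 5 without each of the S6K1-/- replicates in turn, where from 18.1% to 20.4% were. S6K1-/- replicate 3, without which the lower count was 12, is the S6K1-/- library with the lowest mitochondrial share, and the part of that share was not tested.

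A p that misses a threshold does not show that a gene did not change, so the 95% intervals were also read. The interval of the log2 fold change lay within -0.25 to 0.25 for 39 of the 46 members, against 39.4% of all genes tested. Most members are abundant and abundant genes have narrower intervals, so the count was repeated for genes whose mean reached 20 CPM, a limit set after the data were seen. There, 38 of 40 members had such an interval, against 78.9% of the 8081 genes at that level. The median of these 40 members was -0.018, and that of all genes at that level was 0.017. The 2 exceptions were PSME1, with an interval from -0.33 to -0.11, and PSMG4, with one from 0.04 to 0.26.

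**Figure D1:**
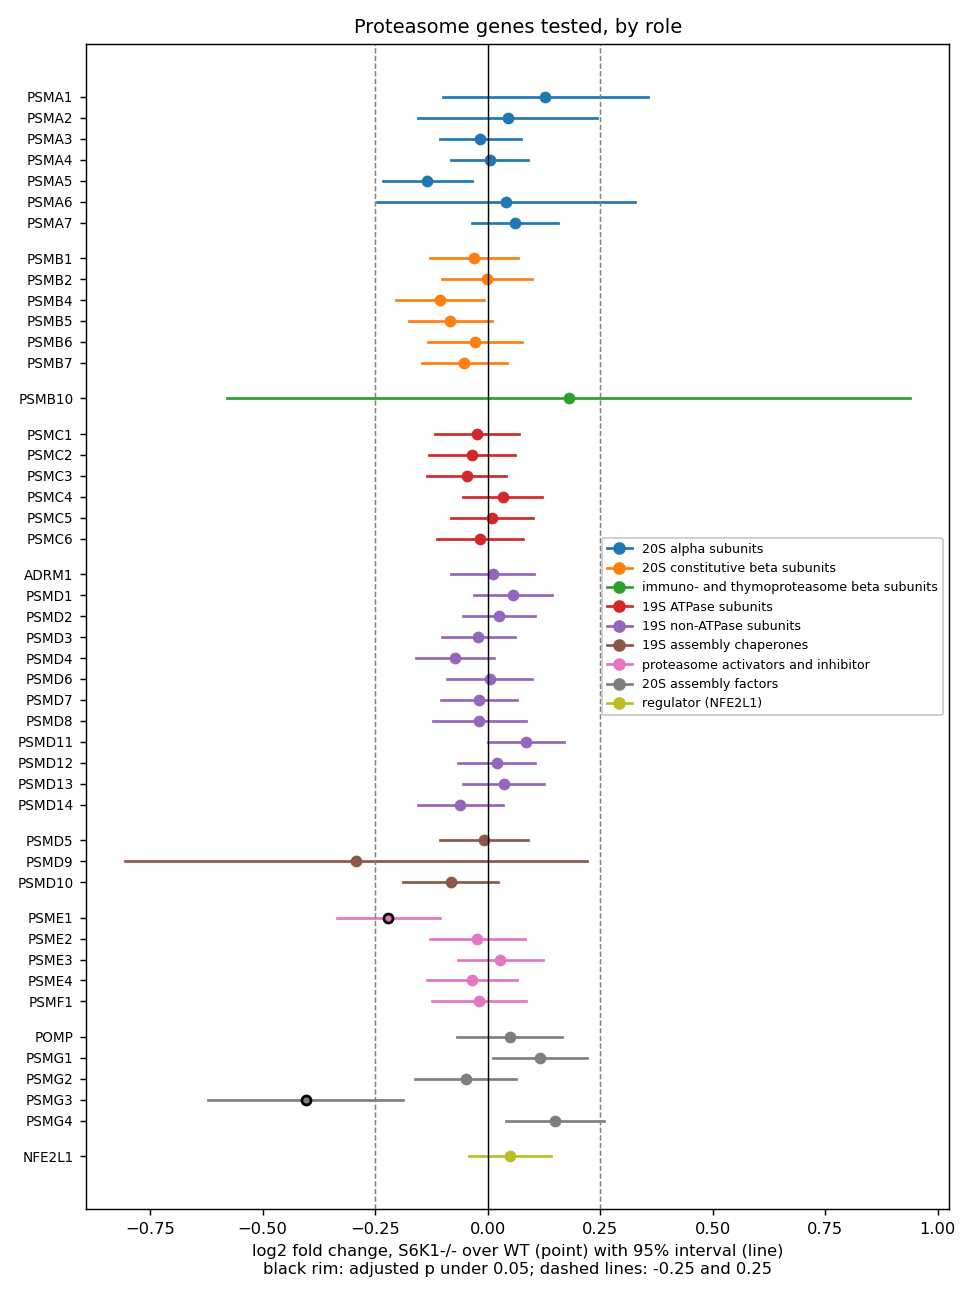
Log2 fold change of each of the 46 tested proteasome genes (S6K1-/- over WT, x axis), ordered by role, with its 95% interval as a line (n = 3 libraries per group). Only PSME1 and PSMG3 have a black rim (adjusted p under 0.05), the intervals of 39 genes lie between the dashed lines at -0.25 and 0.25, and the widest belong to the low-count genes PSMB10 and PSMD9.

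**Figure D2:**
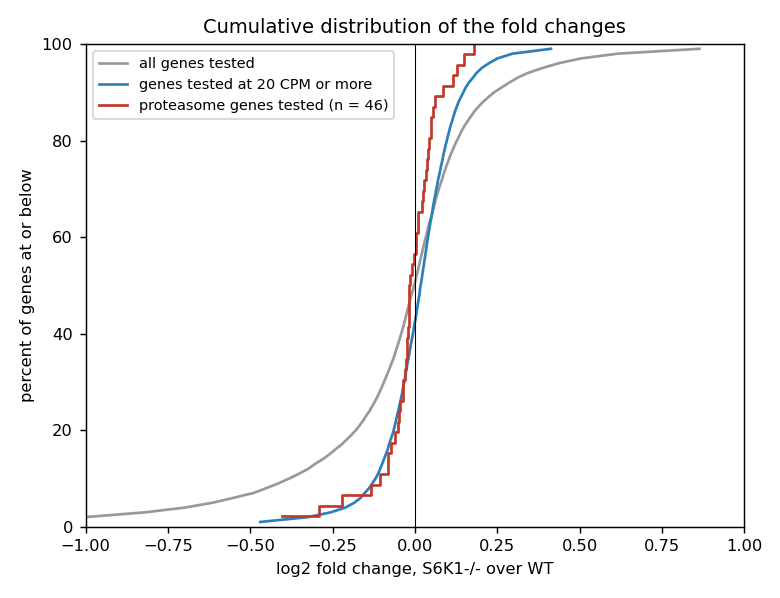
Percent of genes (y axis) at or below each log2 fold change (x axis, S6K1-/- over WT) for the 46 proteasome genes, for all 19521 genes tested and for the 8081 genes at 20 CPM or more. The proteasome genes rise most steeply around 0, with a median of -0.017.

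The 20S core was described first, beginning with the beta subunits that carry the catalytic sites. PSMB5 (chymotrypsin-like activity) had 114, 119 and 116 CPM in WT and 108, 106 and 115 CPM in S6K1-/- libraries, a log2 fold change of -0.08 (SE 0.0428, adjusted p = 0.239). PSMB6 (caspase-like activity) had 128, 136 and 132 CPM in WT and 123, 125 and 140 CPM in S6K1-/- libraries, a change of -0.03 (SE 0.0488, adjusted p = 0.775). PSMB7 (trypsin-like activity) had 120.0, 124 and 121 CPM in WT and 119, 111 and 123 CPM in S6K1-/- libraries, a change of -0.05 (SE 0.0446, adjusted p = 0.514). WT and S6K1-/- values overlapped for all 3 catalytic genes.

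All 6 constitutive beta genes that were tested lay below 0, with a median of -0.04 and a range from -0.11 to -0.0012, and none passed an adjusted p of 0.05. The sign of PSMB6 turned without S6K1-/- replicate 1 (0.0072), and PSMB7 was -0.0074 without S6K1-/- replicate 2. The value farthest from 0 was that of PSMB4, a structural beta subunit, with 182, 200.3 and 187 CPM in WT and 171, 173 and 184 CPM in S6K1-/- libraries (log2 fold change -0.11, adjusted p = 0.154). Its groups overlapped by 1 library each. The intervals of all 6 lay within -0.25 to 0.25.

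The 7 alpha genes that were tested had a median of 0.04, with 5 above and 2 below 0, and none passed an adjusted p of 0.05. PSMA5, an alpha ring subunit, had 107, 114 and 108 CPM in WT and 100.2, 94.3 and 106 CPM in S6K1-/- libraries. All its S6K1-/- libraries lay below all WT libraries, with a log2 fold change of -0.13 (SE 0.0467) and an adjusted p of 0.0732. That p fell below 0.05 in 3 of 13 alternatives. PSMA1, another alpha ring subunit with far fewer counts, had 11.8, 14.6 and 15.5 CPM in WT and 13.0, 16.9 and 15.9 CPM in S6K1-/- libraries. These overlapped, and the change was 0.13 with a larger error (SE 0.107, adjusted p = 0.497). It ranged from 0.03 without WT replicate 1 and 0.05 without S6K1-/- replicate 2 to 0.22 without WT replicate 3 and 0.23 without S6K1-/- replicate 1.

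Genes of the 19S cap lay close to 0. The 6 ATPase genes ran from -0.05 (PSMC3) to 0.03 (PSMC4) with a median of -0.02, and the 12 non-ATPase genes from -0.07 (PSMD4, a ubiquitin receptor) to 0.09 (PSMD11, a scaffold subunit) with a median of 0.0074. All 18 intervals lay within -0.25 to 0.25, and the groups overlapped for 17 of the 18 genes. The exception was PSMD11, with 159, 170 and 163 CPM in WT and 176, 175 and 172 CPM in S6K1-/- libraries (change 0.09, SE 0.0394, adjusted p = 0.182). ADRM1, the ubiquitin receptor that docks the deubiquitinase UCHL5, had 103, 108 and 99.7 CPM in WT and 106, 102 and 105 CPM in S6K1-/- libraries. These overlapped, with a change of 0.01 (SE 0.0427, adjusted p = 0.910) whose sign turned with library totals alone, without WT replicate 3 and without S6K1-/- replicate 1.

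The activators held one of the 2 members past 0.05. PSME1 encodes PA28 alpha, which with PA28 beta (PSME2) forms a ring that opens the core without ATP and is known for its role in making peptides for antigen presentation. PSME1 lies on the plus strand at chr14:24136163-24138967 (GRCh38, GENCODE 44), and had 964, 1009 and 991 counts in WT and 827, 809 and 802 counts in S6K1-/- libraries. On the CPM scale these were 39.6, 41.0 and 42.7 against 35.2, 33.8 and 36.8, so that all S6K1-/- libraries lay below all WT libraries. The log2 fold change was -0.22 (SE 0.0535), a fall of 14.2%, with an adjusted p of 0.0118. It ranged from -0.24 to -0.19 over 13 alternatives. The adjusted p stayed under 0.05 in 10 of these and was 0.0644 without WT replicate 3, 0.0509 without S6K1-/- replicate 1 and 0.0584 without S6K1-/- replicate 2.

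PSME2 is a neighbour of PSME1 on chromosome 14, on the minus strand at chr14:24143362-24147570. It had 44.6, 47.2 and 43.6 CPM in WT and 45.7, 44.3 and 43.2 CPM in S6K1-/- libraries. The groups overlapped, with a change of -0.02 (SE 0.0495, adjusted p = 0.819) and an interval from -0.13 to 0.08. The difference between the changes of the 2 genes was not tested. Within 50 kb of PSME1, PCK2, a mitochondrial gluconeogenic enzyme, was also lower at an adjusted p of 0.05 (log2 fold change -0.15, SE 0.0405, adjusted p = 0.0208). That p was above 0.05 in 6 of 13 alternatives, reaching 0.0839 with DESeq2, 0.0576 without WT replicate 1, 0.0566 without WT replicate 2, 0.0569 without WT replicate 3, 0.0658 without S6K1-/- replicate 2 and 0.0807 without S6K1-/- replicate 3. PCK2 was chosen for its position after its value was seen. The other 6 neighbours tested within that distance (NRL, DCAF11, EMC9, RNF31, IRF9 and REC8) changed by -0.12 to -0.02, and none passed (adjusted p from 0.291 to 0.958).

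The remaining activators and the inhibitor had values close to 0. PSME3 (PA28 gamma, the nuclear activator) changed by 0.03 and PSME4 (PA200) by -0.03. PSMF1, the inhibitor PI31, had 57.3, 60.7 and 56.4 CPM in WT and 59.8, 57.9 and 54.3 CPM in S6K1-/- libraries. These overlapped, with a change of -0.02 (SE 0.0487, adjusted p = 0.853) whose sign turned without WT replicate 2 and without S6K1-/- replicate 3.

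Among the factors that assemble the core, the values ran in both directions. PSMG3 (PAC3), which pairs with PSMG4 (PAC4) on the growing alpha ring, lies on the minus strand at chr7:1567332-1571005. It had 372, 430 and 327 counts in WT and 269, 249 and 297 counts in S6K1-/- libraries, or 15.3, 17.5 and 14.1 against 11.5, 10.4 and 13.6 CPM. The highest S6K1-/- library lay just below the lowest WT library. The log2 fold change was -0.40 (SE 0.101), or 0.755 times the WT level and the lowest value of any tested member, with an adjusted p of 0.0140. The adjusted p stayed under 0.05 in 10 of 13 alternatives and was 0.0553 without WT replicate 2, 0.0543 without S6K1-/- replicate 1 and 0.0754 without S6K1-/- replicate 2. It was 4.41e-05 without the filter on low counts.

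PSMG4, the partner of PSMG3, had 55.6, 56.0 and 51.5 CPM in WT and 60.6, 63.2 and 57.0 CPM in S6K1-/- libraries. All S6K1-/- libraries were above all WT libraries, with a change of 0.15 (SE 0.0507) and an adjusted p of 0.0662. The p fell below 0.05 in 3 of 13 alternatives, with no filter on low counts (0.0499), with the replicate block (0.0332) and without S6K1-/- replicate 3 (0.0332). PSMG1 (PAC1) had 41.3, 45.2 and 42.5 CPM in WT and 46.6, 46.3 and 47.0 CPM in S6K1-/- libraries. They did not overlap, with a change of 0.12 (SE 0.0489) and an adjusted p of 0.138. PSMG2 (PAC2), which pairs with PSMG1, changed by -0.05 (adjusted p = 0.609). POMP, which brings beta subunits onto the alpha ring, had 84.2, 90.8 and 79.9 CPM in WT and 82.7, 87.0 and 94.1 CPM in S6K1-/- libraries, overlapping groups with a change of 0.05 (SE 0.0549, adjusted p = 0.631). This change ranged from 0.0057 without S6K1-/- replicate 3 to 0.0996 without WT replicate 2.

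The gene PSMG3-AS1 starts inside the PSMG3 locus and runs the other way, on the plus strand at chr7:1570073-1589626. It was singled out for this position after its value was seen. It had 55, 51 and 42 counts in WT and 24, 24 and 26 counts in S6K1-/- libraries. The groups did not overlap, and the change was -0.93 (SE 0.190, adjusted p = 0.00356), with an adjusted p under 0.05 in all 13 alternatives. The canonical transcript of PSMG3 shares 0% of its exonic bases with genes of the other strand, but the strand setting of the count step is not given in the sources used here. Of the other genes within 50 kb, MAFK changed by 0.06 and TMEM184A by 0.17, both with intervals that include 0 (adjusted p = 0.614 and 0.374).

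The 3 chaperones of the 19S cap all lay below 0, and none passed an adjusted p of 0.05. PSMD10 (gankyrin) had 75.5, 74.8 and 75.4 CPM in WT and 68.1, 68.1 and 77.0 CPM in S6K1-/- libraries, where the third S6K1-/- library lay above all WT libraries (change -0.08, adjusted p = 0.321). PSMD5 changed by -0.0086. PSMD9 had only 38, 54 and 33 counts in WT and 39, 39 and 20 counts in S6K1-/- libraries. These overlapped, and the change of -0.29 had an SE of 0.240 and an adjusted p of 0.491. It was -0.08 without WT replicate 2 and -0.06 without S6K1-/- replicate 3.

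**Figure D3:**
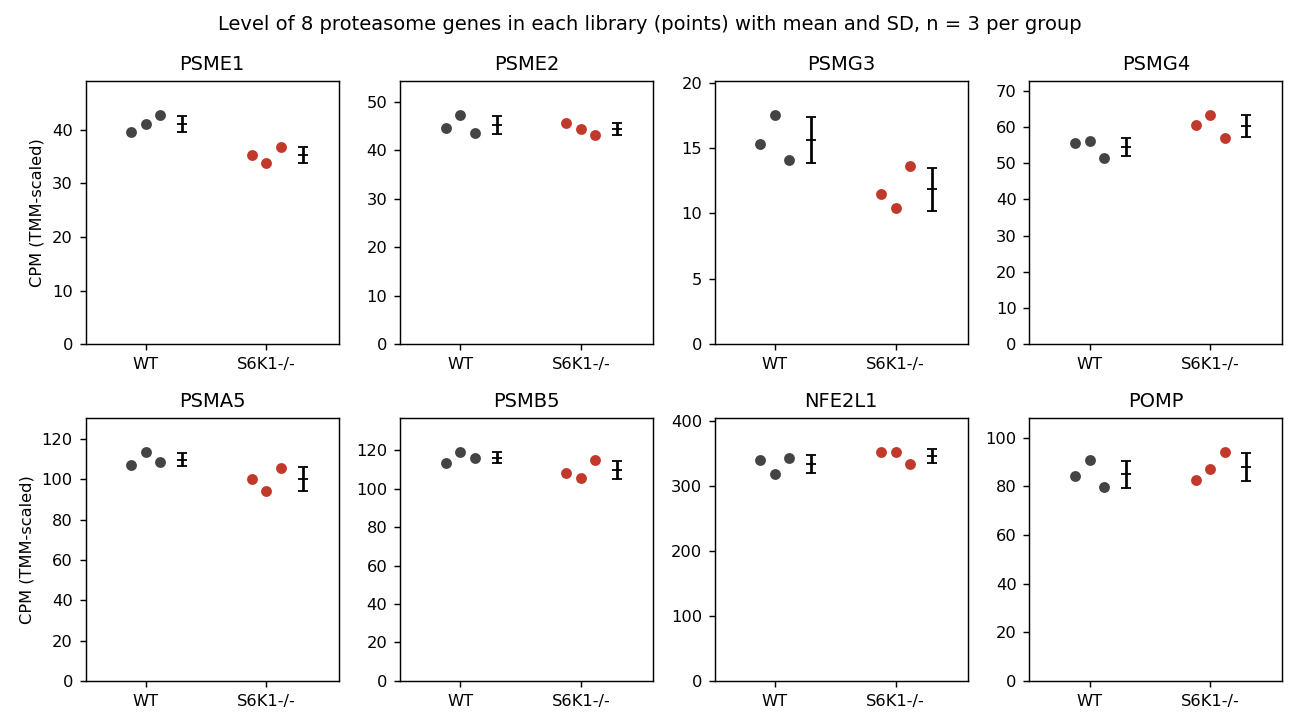
Level of 8 proteasome genes (y axis, CPM after TMM scaling, from 0) in each WT (grey) and S6K1-/- (red) library, with the mean and SD of the 3 libraries in black. The groups are apart for PSME1, PSMG3, PSMG4 and PSMA5 and overlap for PSME2, PSMB5, NFE2L1 and POMP.

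NFE2L1, the regulator, had 340.5, 319 and 343 CPM in WT and 352, 352 and 333 CPM in S6K1-/- libraries. The groups overlapped, with a change of 0.05 (SE 0.0430, adjusted p = 0.517) and an interval from -0.04 to 0.14. This change ranged from 0.017 without WT replicate 2 to 0.083 without S6K1-/- replicate 3. NFE2L1 is regulated mainly through its protein, which is held at the endoplasmic reticulum, cut and degraded, so its transcript level is not a measure of its activity. The genes known for these steps and its relatives were therefore read as a list of 14, all tested. None passed an adjusted p of 0.05, 10 lay above 0 and the median was 0.07. The lowest p values belonged to SEL1L (0.15, adjusted p = 0.0688), an adaptor of degradation at the endoplasmic reticulum, DDI2 (0.14, adjusted p = 0.0978), the protease that cuts NFE2L1, and OGT (0.10, adjusted p = 0.224), a glycosyltransferase. SEL1L had 42.8, 39.0 and 42.3 CPM in WT and 46.5, 44.9 and 46.1 CPM in S6K1-/- libraries. DDI2 had 72.1, 64.1 and 69.3 CPM in WT and 76.3, 79.4 and 70.7 CPM in S6K1-/- libraries. OGT had 264, 228 and 251 CPM in WT and 266, 262 and 268 CPM in S6K1-/- libraries. The groups were apart for SEL1L and overlapped for the other two. DDI2 had an adjusted p of 0.0441 without S6K1-/- replicate 3 and of 0.0497 without the filter on low counts. With a library left out, the change of OGT ranged from 0.042 (WT replicate 2) to 0.155 (WT replicate 1).

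The letters of the antioxidant response element, TGACNNNGC on either strand, were looked up in the RefSeq promoters of GRCh38.p14, which run from 250 bases before to 50 after the start site. A promoter was given for 45 of the 51 members, and 16 of these (35.6%) held the letters, against 4384 of 27305 genes (16.1%). The windows below, printed 5′ to 3′ on the strand of the gene with the motif in capitals and 20 bases on each side, show it in 1 member that fell, in 4 that did not pass the test and in 1 that was not tested. They lie at chr14:24136088-24136136 for PSME1, chr14:24146757-24146805 for PSME2, chr21:39183606-39183654 for PSMG1, chr15:78540640-78540688 for PSMA4, chr17:67366714-67366762 for PSMD12 and chr17:38752617-38752665 for PSMB3. PSME1, PSMA4 and PSMB3 are on the plus strand and the others on the minus strand.
PSME1: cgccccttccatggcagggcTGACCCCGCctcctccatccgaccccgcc
PSME2: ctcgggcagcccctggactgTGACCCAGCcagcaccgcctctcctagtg
PSMG1: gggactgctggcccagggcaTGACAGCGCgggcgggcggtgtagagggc
PSMA4: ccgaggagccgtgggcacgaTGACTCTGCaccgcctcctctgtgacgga
PSMD12: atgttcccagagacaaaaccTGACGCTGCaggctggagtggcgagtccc
PSMB3: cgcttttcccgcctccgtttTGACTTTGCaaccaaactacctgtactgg
The match is a description of letters and not a bound site. Among the tested members, the 14 with the motif had a median log2 fold change of -0.0022 (7 below and 7 above 0), and the 26 with a promoter but no motif had a median of -0.0086 (14 below and 12 above 0). PSME1 fell and PSMA4 had a change of 0.0042 (adjusted p = 0.964), while both windows hold the motif. For PSMG3, the other member past 0.05, no promoter was matched.

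The immunoproteasome subunits replace the catalytic subunits in immune cells and after interferon. PSMB8 and PSMB9 had 0 counts in all 6 libraries, where 3 counts would be 0.122 to 0.138 CPM, and PSMB11, the thymus subunit, had 0 as well. PSMB10 had 13, 14 and 7 counts in WT and 12, 17 and 8 counts in S6K1-/- libraries. The groups overlapped, with a change of 0.18 whose SE of 0.355 was larger than the value (adjusted p = 0.804). Its sign turned without WT replicate 3 (-0.040) and without S6K1-/- replicate 2 (-0.090), and it was 0.38 without S6K1-/- replicate 3. Around them, 8 of 14 genes of antigen presentation and interferon response were tested. TAP1 was at 0 in all libraries, and TAP2 and TAPBP had at most 1 and 2 counts. B2M (14.9 against 15.4 CPM) differed by less than its spread. ERAP1, a peptidase that trims peptides for presentation, had 29.0, 30.9 and 31.7 CPM in WT and 30.2, 27.6 and 30.0 CPM in S6K1-/- libraries (change -0.06, adjusted p = 0.554). IRF1, an interferon response factor, had 3.49, 3.62 and 3.57 CPM in WT and 3.28, 3.05 and 3.58 CPM in S6K1-/- libraries (change -0.11, adjusted p = 0.639). Both overlapped between the groups. NLRC5, a known activator of these genes, was the only one of the 8 past an adjusted p of 0.05, where 8.31% of all genes tested were lower. It had 53, 49 and 50 counts in WT and 22, 29 and 16 counts in S6K1-/- libraries, with no overlap and a change of -1.12 (SE 0.204, adjusted p = 0.00155). The adjusted p was 8.92e-06, past 0.001, without the filter on low counts and 0.00974 with DESeq2's test.

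The remaining lists cover what feeds the proteasome and what binds it. Of 15 genes for ubiquitin, its activation and its shuttles, all were tested, none passed 0.05 and the median was 0.04. The lowest p values were those of UBQLN1 (0.09, adjusted p = 0.149), a shuttle factor, NPLOC4 (0.08, adjusted p = 0.267), a cofactor of the VCP unfoldase, and UBA6 (0.07, adjusted p = 0.345), a ubiquitin-activating enzyme. UBQLN1 had 236, 231 and 244 CPM in WT and 254, 249 and 253 CPM in S6K1-/- libraries. NPLOC4 had 128, 117 and 120 CPM in WT and 128, 130 and 127 CPM in S6K1-/- libraries. UBA6 had 80.9, 76.5 and 78.8 CPM in WT and 84.8, 78.0 and 85.7 CPM in S6K1-/- libraries. The groups were apart for UBQLN1 and overlapped for the other two. All 15 intervals lay within -0.25 to 0.25. Of 12 genes for proteins that bind or modify the proteasome, 3 were higher at an adjusted p of 0.05, 0 lower, and the median was 0.05, beside 5.47% of all genes tested and 657 of the 8081 genes at 20 CPM or more that were higher. No gene of these 2 lists passed 0.001 in the edgeR fit, and ECPAS passed it under 2 alternatives.

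The 3 genes that were higher act on or beside the 19S cap. ECPAS (ECM29), which binds the assembled particle, had 292, 265 and 285 CPM in WT and 324, 311 and 320 CPM in S6K1-/- libraries (change 0.18, SE 0.0436, adjusted p = 0.0110). The groups did not overlap. The adjusted p was 0.0576 without S6K1-/- replicate 1, but 0.000671 with DESeq2's test and 0.000630 without the filter on low counts, both past the threshold of 0.001. UCHL5, the deubiquitinase docked by ADRM1, had 41.9, 40.7 and 42.6 CPM in WT and 46.0, 45.7 and 48.4 CPM in S6K1-/- libraries (change 0.16, SE 0.0480, adjusted p = 0.0367). UBE3C, a ubiquitin ligase at the cap, had 99.1, 95.8 and 101 CPM in WT and 111, 107 and 106 CPM in S6K1-/- libraries (change 0.13, SE 0.0402, adjusted p = 0.0469). Neither group pair overlapped. Their adjusted p rose above 0.05 without any 1 of the 6 libraries, to between 0.0503 and 0.106 for UCHL5 and between 0.0566 and 0.194 for UBE3C. They were also above 0.05 with DESeq2's test (0.0915 and 0.0658) and with library totals alone (0.0691 and 0.0927), and that of UBE3C without the filter on low counts (0.0613), so that 5 of 13 alternatives kept UCHL5 and 4 of 13 kept UBE3C under 0.05. SEM1, a 19S subunit whose symbol the rule does not match, changed by -0.06 (adjusted p = 0.439).

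Levels were compared between genes per kilobase of the exons of the canonical transcript. The particle holds its constitutive subunits in fixed proportions, and 28 of the 32 constitutive subunit genes had 20.4 to 206.5 CPM per kilobase in WT (median 72.2). By role, the medians over these 28 were 97.5 CPM per kilobase in WT and 96.7 in S6K1-/- hESCs for 4 alpha genes, 136 and 132 for 6 beta genes, 41.1 and 41.4 for the ATPase genes, and 77.4 and 78.6 for the non-ATPase genes. Within each role the WT levels per kilobase ranged widely, from 28.8 to 155 for alpha, from 30.4 to 206.5 for beta, from 22.9 to 67.7 for ATPase and from 20.4 to 96.1 for non-ATPase genes. The lowest of each role, PSMA5, PSMB2, PSMC1 and PSMD12, have canonical transcripts of 3815, 4426, 4390 and 4356 bases. Before division by length, WT means ran from 109.8 to 187 CPM for alpha and from 116 to 189.6 for beta genes. They ran from 73.3 to 102.6 CPM for ATPase and from 86.9 to 266 for non-ATPase genes. The part of transcript length in these ranges was not tested.

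The other 4 constitutive subunit genes were lower, at 0.128 to 11.7 CPM per kilobase in WT. PSMA1, PSMA2 and PSMA6 share 67.0%, 100% and 81.4% of the exonic bases of their canonical transcript with another protein-coding gene on the same strand. Only 2 further members do so, PSMB10 (56.1%) and PSMD9 (28.8%), and these were also low. PSMB3, a beta subunit of every core, had 3, 1 and 3 counts in WT and 0 in each S6K1-/- library. It shares no exon with another gene, but its whole transcript is present, with 100% identity, on an alternate contig of GRCh38. Of all members, only PSMB8 and PSMB9 also have a full copy on alternate contigs, 7 each of the 261 searched, with at least 99.91% and 99.61% identity.

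Reads that fall on shared exons or on identical copies can be dropped by a count step. Whether the genome index of the study held the alternate contigs, and which annotation was used, is not given in the sources used here, and the part of either in these low levels was not tested. The counts of these 8 genes are therefore uncertain as levels, and 0 counts for PSMB8 and PSMB9 do not show that the genes are silent. Without the 5 tested members that share exons, the median log2 fold change was -0.019 over 41 members, and 2 were lower at an adjusted p of 0.05. The 4 members with over 10% of their exonic bases shared on the opposite strand were PSMC1, PSMD7, ADRM1 and PSMC5. They had at least 2007 counts in every library. Per kilobase in WT they had 22.9, 95.7, 75.2 and 67.7 CPM in that order. PSMC1 was the lowest and PSMC5 the highest of the ATPase genes, and the part of such sharing was not tested. The rows of 30 pseudogenes of 10 members held only 115 to 138 counts per library in all, and 15 of them were at 0.

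**Figure D4:**
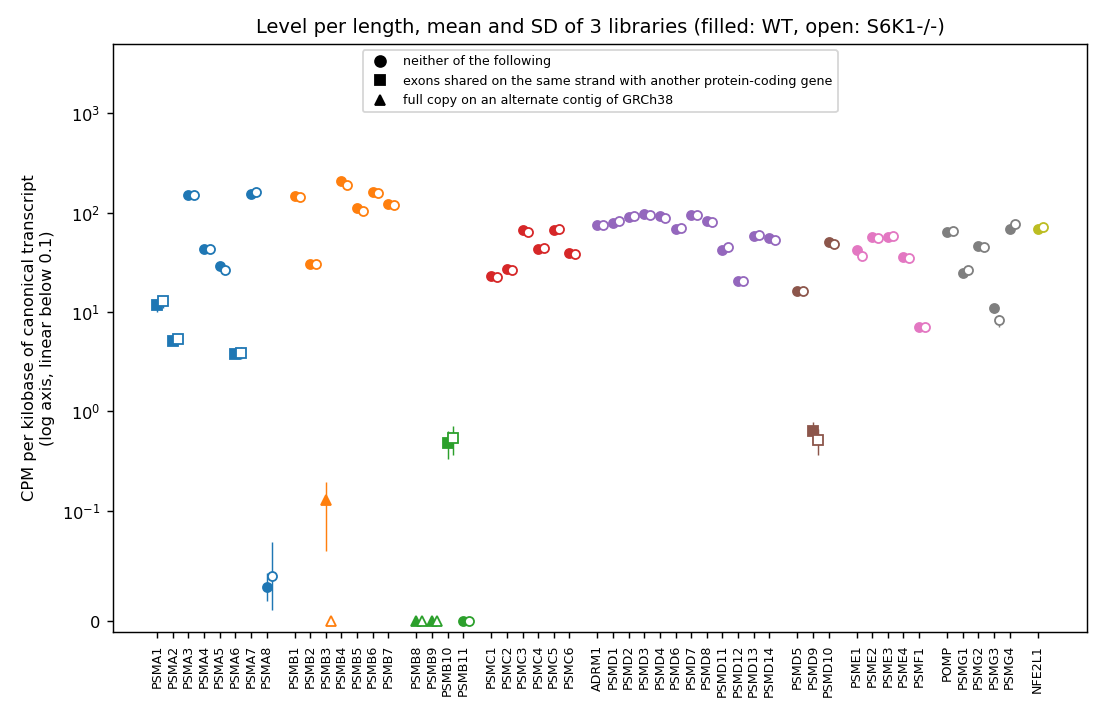
Level of each of the 51 proteasome genes in CPM per kilobase of canonical transcript (log y axis, linear below 0.1), as mean and SD of 3 libraries, filled for WT and open for S6K1-/- hESCs. Squares (exons shared on the same strand) and triangles (full copy on an alternate contig) lie below the circles of their role other than PSMA8 and PSMB11, and filled and open symbols are close for nearly all genes.

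The median level of the proteasome genes differed slightly from library to library. Over the 40 members at 20 CPM or more, the median log2 deviation from the mean of all libraries was -0.015, 0.05 and -0.0041 in WT and -0.0023, -0.05 and 0.03 in S6K1-/- libraries. The spread between libraries of 1 group was thus larger than the median difference between groups. The coefficient of variation over 3 libraries had a median of 2.99% in WT and 3.92% in S6K1-/- hESCs, with maxima of 6.45% for POMP in WT and 7.23% for PSMD10 in S6K1-/- hESCs.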

How the data were processed

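Bulk RNA sequencing of undifferentiated WT and S6K1-/- H7 hESCs, 3 libraries each, was analysed. The labels give these libraries a time of week 5 and a knockdown, whereas the study's methods describe undifferentiated knockout cells, and group names follow the genotype. The authors made stranded mRNA libraries, trimmed the paired reads with Trim Galore 0.6.5, aligned them to GRCh38 with Bowtie2 2.4.5, which does not cross splice junctions, and counted them with featureCounts. They deposited whole-number counts per gene without normalization. The annotation and the strand setting are not given in the sources used here. A second deposited table, the authors' own comparison with DESeq2 1.37.4, holds mean values, log2 fold changes, test statistics and p-values and was not used.

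Genes were kept with filterByExpr and tested for genotype with the quasi-likelihood F test of edgeR on TMM-scaled libraries (edgeR 4.0.16, limma 3.58.1, R 4.3.3). Benjamini-Hochberg adjustment covered all 19521 genes, with the study's threshold of 0.001 and a looser one of 0.05. The common dispersion was 0.00216. SEs were derived from the fold change and the F statistic, and intervals cover 95%. The steps were also run on simulated counts with the same dispersion for every gene, and the outcome is not reported here. The members and lists were chosen with earlier results of these data known. Values in every library are given for members past 0.05, the 3 highest and the 3 lowest fold changes, the catalytic subunits and their immune counterparts, NFE2L1, POMP, ADRM1 and PSMF1, and for other lists the 3 genes with the lowest p. Further genes were chosen after their values were seen. These are PSMA5, PSMB4, PSMG1, PSMD10, PSMD11, PSME2 and the neighbours. Alternatives were DESeq2's size factors and Wald test (DESeq2 1.42.0), library totals, no filter, at least 10 counts in every library, a replicate block, counts summed with pseudogene rows, and each library left out. Positions and lengths come from GENCODE 44. Copies on alternate contigs were sought with minimap2 2.31 at 90% cover and 95% identity. Some genes of the lists are not reported here.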

Additional observations from a re-analysis of the deposited data

How the results depend on the processing

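Counts of 0 members past an adjusted p of 0.001 became 1 lower without the filter on low counts (PSMG3) and 2 lower at the looser threshold of 0.05. At 0.05, the 2 lower members ranged from 0 to 3 when each library was left out, with 0 without S6K1-/- replicate 1 and without S6K1-/- replicate 2, and 1 without WT replicate 2 and without WT replicate 3. The 0 higher members became 1 (PSMG4) without the filter and 1 with the replicate block, and ranged from 0 to 1 with a library left out. Members with lower, non-overlapping libraries numbered 5 when scaled by library totals (19.1% of all genes) and from 3 to 12 with a library left out, and higher ones from 3 to 7. At 0.05 the proteasome-associated list had 3 genes higher and the antigen presentation list 1 lower, in place of 0. The sign of ADRM1 turned to -0.010 with library totals, with a range from -0.0095 to 0.044 with a library left out. With a library left out, PSMB10 ranged from -0.090 to 0.38, PSMB6 from -0.079 to 0.0072 and PSMF1 from -0.048 to 0.025. The cause of these turns was not tested. Of 519 values under an alternative, 454 kept their direction and side of the threshold or, for counts and the members' median, stayed within a set margin. That margin for the median was the spread between WT libraries, so its turn to 0.0081 without WT replicate 2 is among the 454.

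The correlations between libraries did not decide whether replicate numbers pair them. Same-numbered libraries had correlations of 0.307, 0.0947 and 0.0747, and those of other numbers had -0.308 to 0.185. Not every library correlated best with its own number. The replicate block changed 1 call among the members, that of PSMG4. With a median SE of 0.0448 over the members, changes of a few percent in a single gene were not resolved by these libraries, and members with few counts (PSMB10, PSMD9, PSMA6) allow much larger ones. Intervals cover counting error and the spread between these libraries only.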
